A study of Mus musculus with 20 samples.

Results

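The 7 genes described here are Abat, Aldh5a1, Aldh6a1, Hibch, Pcca, Pccb and Mcee, which encode enzymes that break down γ-aminobutyric acid (GABA), valine and propionate. They were chosen by the measured diet changes of these same hearts, with Abat among the largest decreases, and by their pathway, and all 7 are among the 49005 mouse genes that the count tables cover and among the 18069 that were tested. Polyadenylated RNA from mouse hearts was sequenced to compare a high-fat diet with chow in both sexes. All animals were wild-type C57BL/6 mice aged 12 weeks, and the 4 groups of 5 samples were high-fat females, chow females, high-fat males and chow males. The high-fat samples carry the label PA, which was read as high fat by elimination because the series text names only chow and a high-fat diet. The labels give neither the length of the diet nor a statement that samples of a group came from separate animals, so a p-value reflects variation among the samples at hand, which may be technical.

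GABA aminotransferase, the product of Abat, sits in the mitochondrial matrix and turns GABA into succinate semialdehyde, which the product of Aldh5a1 oxidises to succinate for the citric acid cycle. The same aminotransferase acts on β-alanine and on aminoisobutyrate, so it also touches the breakdown of pyrimidines and valine. Further down the valine route, Hibch and Aldh6a1 encode the hydrolase and the dehydrogenase that lead to propionyl-CoA, and Pcca, Pccb and Mcee encode the carboxylase and the epimerase that carry propionyl-CoA towards succinyl-CoA.

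Levels are counts per 1000000 (CPM) after scaling of library totals, from counts of reads on exon pieces that were summed per gene. Chow male 4 was deposited as counts per gene, a different unit, and was left out, which left 19 libraries with totals of 57004623 to 84607796 counts. High-fat females 4 and 5 stood apart from the other 17 libraries. Counts in them depended on the GC content of a gene, with slopes of 0.37 and 0.56 log2 units per 10 percentage points of GC, against -0.11 to 0.06 in the other 17. The log2 changes of the 7 genes that rest on high-fat females are therefore given with and without these libraries. The diet comparisons were in view when the genes were listed, so the diet values of the 7 genes are given as a description, without p-values. The lists of genes around the 7 were also chosen with earlier results of these data known. Their diet calls and adjusted p-values are therefore a description too. A gene was called changed where edgeR's quasi-likelihood test gave an adjusted p under 0.05 over all genes tested.

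Abat (ENSMUSG00000057880) lies at chr16:8513429-8621568 on the plus strand of GRCm38. Abat had 4.13, 5.82, 6.93, 5.36 and 7.26 CPM in high-fat females 1 to 5, against 13.5, 16.4, 13.9, 11.1 and 17.9 CPM in chow females 1 to 5. In males Abat had 8.52, 6.86, 5.61, 5.52 and 7.59 CPM on high fat, against 16.3, 12.5, 15.2 and 16.2 CPM in chow males 1, 2, 3 and 5. Every high-fat library of either sex lay below every chow library of the same sex, with 8.52 CPM the highest value on high fat and 11.1 CPM the lowest on chow. The means were 5.90 ± 1.26 CPM in high-fat females and 14.6 ± 2.65 CPM in chow females (SD, n = 5 each), and 6.82 ± 1.29 CPM in high-fat males (n = 5) and 15.1 ± 1.77 CPM in chow males (n = 4). The fitted log2 changes were -1.30 ± 0.16 (SE) in females and -1.14 ± 0.17 in males, which are 40.5% and 45.3% of the chow level. The female change was -1.37 ± 0.18 without high-fat females 4 and 5. Ordered by log2 change from the most negative, Abat stood at place 9 in females and place 5 in males among the 13512 genes averaging 1 CPM or more. In whole-heart RNA, fewer cells that express a gene and less of its RNA per cell cannot be told apart.

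**Figure D1:**
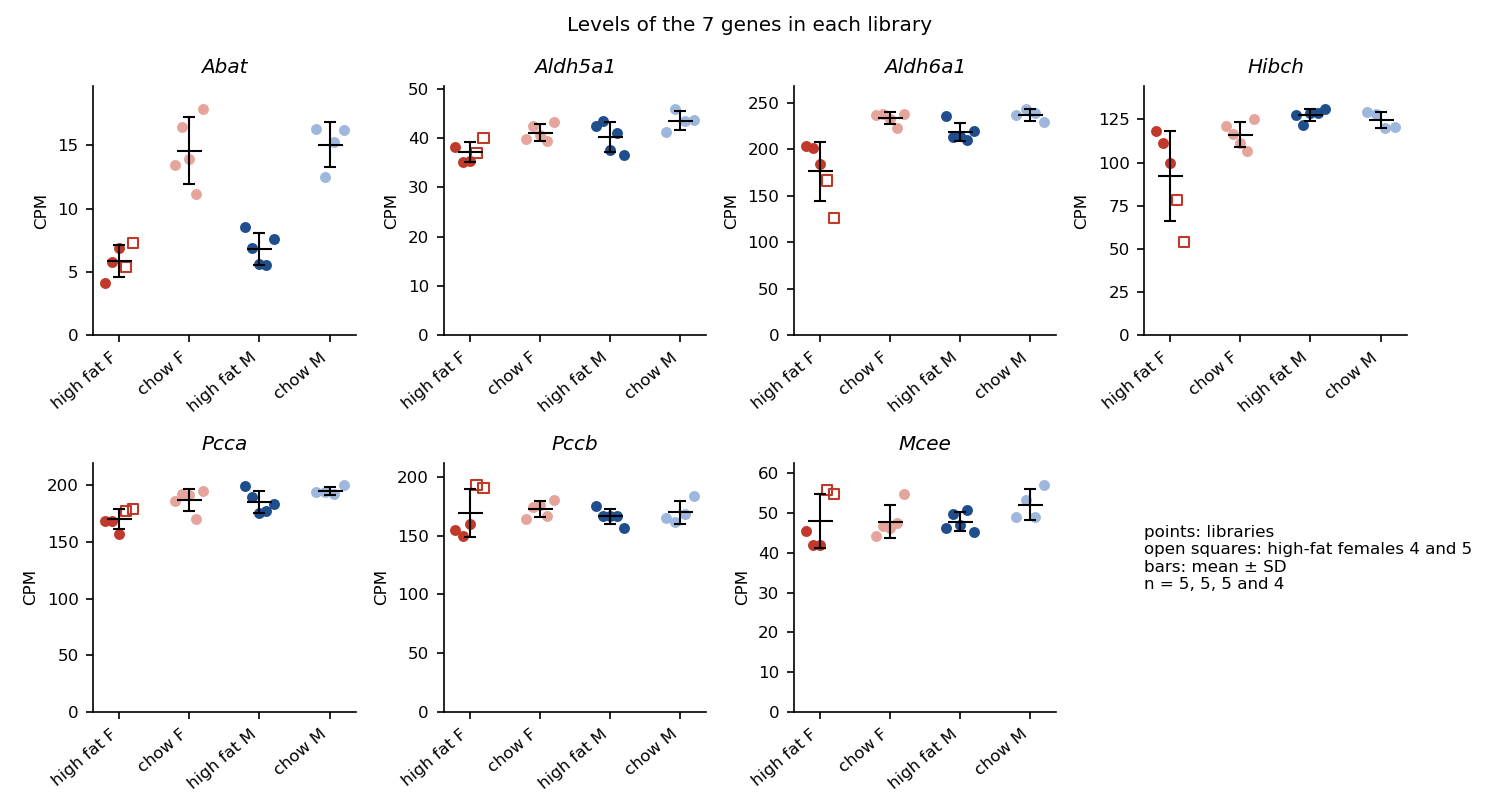
Level of each of the 7 genes in CPM (linear axes from 0) in high-fat females, chow females, high-fat males and chow males; points are libraries, open squares are high-fat females 4 and 5, and bars are mean ± SD (n = 5, 5, 5 and 4). For Abat every high-fat library lies below every chow library, while for Hibch and Aldh6a1 the open squares are the lowest libraries of the panel and for Mcee and Pccb they are among the highest.

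The lower Abat level on high fat was seen at exon pieces from the 5′ to the 3′ end of the gene. The tables divide the exons of Abat into 28 pieces, of which 21 had a mean of at least 0.1 CPM over the 19 libraries, a minimum chosen after the values were seen. All 21 pieces had a lower mean on high fat in both sexes. The log2 ratio of the high-fat mean over the chow mean ran from -1.55 to -0.90 in females, with a median of -1.29, and from -1.48 to -0.86 in males, with a median of -1.16. The groups did not overlap at 13 of these pieces in females and at 20 in males. Among all tested genes, groups did not overlap, with high fat lower, for 1.9% in females and 3.98% in males. The pieces divide the counts on which Abat was chosen, and neighbouring pieces may share reads. They are therefore not separate observations, and nothing is read from their number. The last 2 pieces, at the 3′ end, held 38.4 ± 5.81% of the Abat counts in high-fat females and 37.6 ± 1.25% in chow females (SD, n = 5 each). In males they held 37.9 ± 3.70% on high fat (n = 5) and 36.4 ± 2.86% on chow (n = 4). These means differed between the diets by less than 1 SD in each sex.

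**Figure D2:**
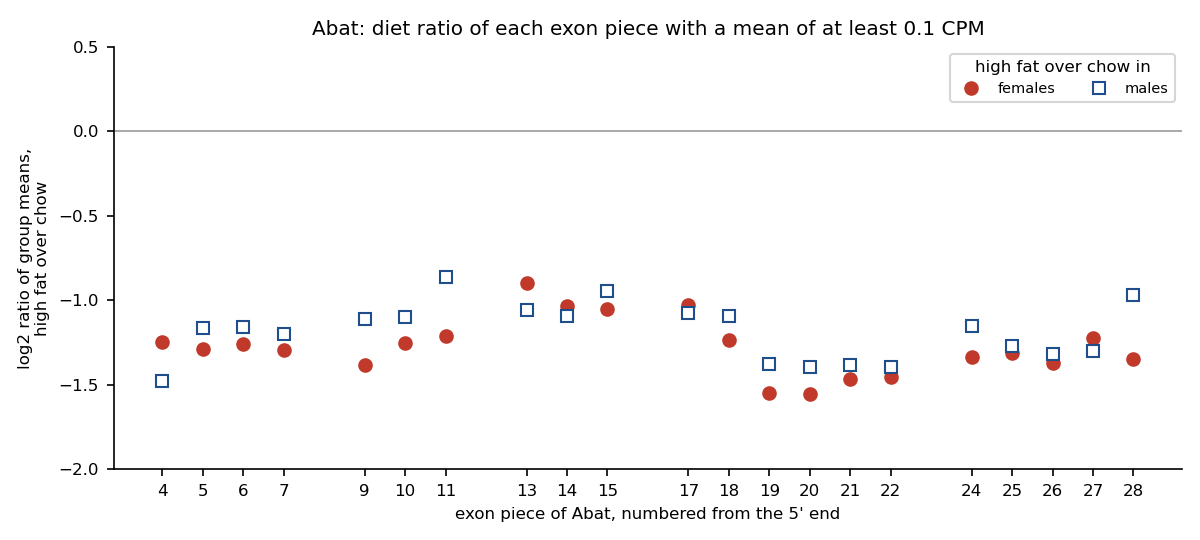
Log2 ratio of the mean CPM in high-fat over chow libraries for each of the 21 exon pieces of Abat with a mean of at least 0.1 CPM, numbered from the 5′ end; filled circles are females and open squares are males. All points lie below 0, between -1.55 and -0.86, at both ends of the transcript.

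Exon 13 of the 16 exons of the main Abat transcript is shown because it is an internal coding exon counted as a piece of its own, at chr16:8611127-8611294 on the plus strand of GRCm38, with no other gene on it. Its 168 bases, all in lower case since no part is singled out, are 57.1% GC.
Abat exon 13: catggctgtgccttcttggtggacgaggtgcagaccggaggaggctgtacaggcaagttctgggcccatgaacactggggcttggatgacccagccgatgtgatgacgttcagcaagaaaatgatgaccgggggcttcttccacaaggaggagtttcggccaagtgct
This exon had 0.262 ± 0.0876 CPM in high-fat females and 0.718 ± 0.235 CPM in chow females (SD, n = 5 each). In males it had 0.269 ± 0.104 CPM on high fat (n = 5) and 0.707 ± 0.112 CPM on chow (n = 4). The groups did not overlap in either sex, and the log2 ratios of the means were -1.45 in females and -1.39 in males. These counts are part of those on which Abat was chosen and are given as a description.

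Aldh5a1, which encodes the succinate semialdehyde dehydrogenase that takes the product of Abat, did not share the size of the Abat change. Aldh5a1 (ENSMUSG00000035936, chr13:24907579-24937661, minus strand, GRCm38) had 35.2 to 40.01 CPM in high-fat females, median 37.0, against 39.4 to 43.3 CPM in chow females, median 40.7. In males it had 36.6 to 43.6 CPM on high fat, median 41.0, against 41.2 to 46.0 CPM on chow, median 43.5. High-fat and chow libraries overlapped in both sexes, through 1 high-fat library in females and 2 in males. The log2 changes were -0.15 ± 0.06 (SE) in females, -0.19 ± 0.06 without high-fat females 4 and 5, and -0.11 ± 0.06 in males, none of them called. Of the Aldh5a1 counts, 64.3% fell on pieces that overlap the genes 9330162012Rik and 4932702P03Rik, and the counting is not stated to use strand, so reads of these genes may be included.

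Hibch and Aldh6a1 encode steps of valine breakdown, and both were lowest in high-fat females 4 and 5. Aldh6a1 (ENSMUSG00000021238), the methylmalonate semialdehyde dehydrogenase that yields propionyl-CoA, lies at chr12:84430717-84451004 on the minus strand of GRCm38. It had 203.7, 200.7, 184, 166 and 126 CPM in high-fat females 1 to 5, against 236, 237, 233, 222 and 237 CPM in chow females 1 to 5. In males it had 235, 213, 215, 209 and 219 CPM on high fat, against 237, 243, 239 and 229 CPM in chow males 1, 2, 3 and 5. All 5 high-fat females lay below every chow female, and 4 of 5 high-fat males lay below every chow male. The log2 change was -0.40 ± 0.09 (SE) in females, -0.25 ± 0.05 without high-fat females 4 and 5, and -0.12 ± 0.10 in males.

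Hibch (ENSMUSG00000041426, chr1:52844929-52920986, plus strand, GRCm38), the 3-hydroxyisobutyryl-CoA hydrolase, had 118, 111, 99.5, 78.3 and 54.2 CPM in high-fat females 1 to 5. Chow females 1 to 5 had 121, 117, 112, 107 and 125 CPM. High-fat females 1 and 2 lay within the chow range and females 3, 4 and 5 below it. In males Hibch had 127, 122, 129, 128 and 131 CPM on high fat, against 129, 128, 120.2 and 121 CPM in chow males 1, 2, 3 and 5, so the male groups overlapped. The log2 change was -0.33 ± 0.14 (SE) in females, -0.09 ± 0.06 without high-fat females 4 and 5, and 0.03 ± 0.15 in males.

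Propionyl-CoA carboxylase is built from α subunits, which carry biotin and are encoded by Pcca, and β subunits, which are encoded by Pccb. Pcca (ENSMUSG00000041650, chr14:122534324-122891100, plus strand, GRCm38) had 157 to 179 CPM in high-fat females, median 169, against 171 to 195 CPM in chow females, median 191. In males Pcca had 176 to 199 CPM on high fat, median 183, against 192 to 200.1 CPM on chow, median 194. The groups overlapped in both sexes, with 3 of 5 high-fat females and 4 of 5 high-fat males below every chow library of their sex. The log2 changes of Pcca were -0.14 ± 0.05 (SE) in females, -0.19 ± 0.05 without high-fat females 4 and 5, and -0.08 ± 0.05 in males.

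Pccb (ENSMUSG00000032527, chr9:100982032-101034898, minus strand, GRCm38) had 155, 149.9, 160.3, 193 and 190.3 CPM in high-fat females 1 to 5, against 164 to 181 CPM in chow females, median 175. High-fat females 4 and 5 lay above every chow female and the other 3 lay below every one, so the log2 change was -0.02 ± 0.07 (SE) with all 5 and -0.16 ± 0.05 with 3. In males Pccb had 157 to 175 CPM on high fat and 162 to 184 CPM on chow, both with a median of 167, and the log2 change was -0.03 ± 0.07. The ratio of Pcca to Pccb CPM was 1.01 ± 0.09 in high-fat females and 1.08 ± 0.04 in chow females (SD, n = 5 each), and 1.11 ± 0.05 in high-fat males (n = 5) and 1.15 ± 0.05 in chow males (n = 4). Its lowest values, 0.917 and 0.940, were those of high-fat females 4 and 5.

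Mcee, the methylmalonyl-CoA epimerase that follows the carboxylase, was, like Pccb, higher in high-fat females 4 and 5 than in the other 3. Mcee (ENSMUSG00000033429, chr7:64392607-64412125, plus strand, GRCm38) had 45.6, 41.9, 42.1, 55.8 and 54.8 CPM in high-fat females 1 to 5, against 44.1 to 54.9 CPM in chow females, median 46.7. High-fat females 2 and 3 lay below every chow female and female 4 above every one. In males Mcee had 45.2 to 50.8 CPM on high fat, median 47.0, against 49.0 to 57.1 CPM on chow, median 51.3. The log2 change was 0.00 ± 0.08 (SE) in females, -0.15 ± 0.07 without high-fat females 4 and 5, and -0.13 ± 0.09 in males.

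In high-fat females 4 and 5 Aldh6a1 and Hibch were low and Mcee and Pccb were high. Aldh6a1 has 42.4% GC in its longest annotated transcript and stood at -0.49 and -0.89 in these libraries, on the log2 scale against the mean of chow females. Hibch, at 45.9% GC, stood at -0.57 and -1.10. Mcee, at 50.2% GC, stood at 0.22 and 0.19, and Pccb, at 51.3% GC, at 0.16 and 0.14. In high-fat females 1 to 3 the same 4 genes lay between -0.34 and 0.02. The other members did not follow GC content in this way. Pcca, at 46.8% GC, stood at -0.08 and -0.06 in females 4 and 5, above its -0.25 to -0.15 in females 1 to 3. Aldh5a1, at 48.3% GC, stood at -0.15 and -0.04, against -0.23 to -0.11 in females 1 to 3. Abat has the GC content of Mcee, 50.2%, and stood at -1.44 and -1.01 in females 4 and 5, within its range of -1.82 to -1.07 in females 1 to 3 or close to it.

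**Figure D3:**
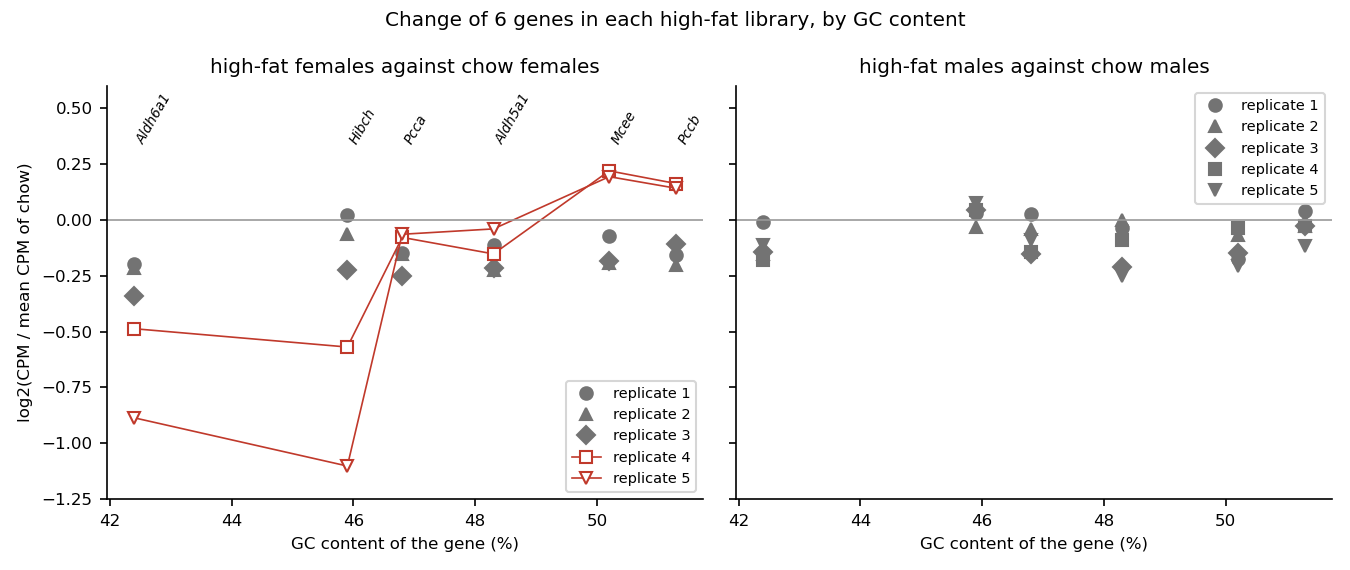
Log2 ratio of each high-fat library to the mean CPM of the chow group of its sex, for the 6 genes other than Abat, against the GC content of the gene in percent; females are on the left and males on the right, marker shapes are replicates, and joined open markers are high-fat females 4 and 5. The joined markers run from -1.10 for Hibch at 45.9% GC to 0.22 for Mcee at 50.2% GC, while the other libraries stay between -0.34 and 0.07.

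Counting the diet calls over the list, edgeR's quasi-likelihood test called 2 of the 7 genes lower in high-fat females, Abat and Aldh6a1, where 0.863% of all tested genes were called lower. Leaving out high-fat females 4 and 5, it called 3, Abat, Aldh6a1 and Pcca, where 2.5% of genes were called lower. In males 1 of 7 was called, Abat, where 0.365% of genes were called lower. The median log2 change of the 7 genes was -0.15 in females and -0.11 in males, against -0.02 and 0.00 over all tested genes. Groups did not overlap, with high fat lower, for Abat and Aldh6a1 in females (1.9% of all tested genes) and for Abat in males (3.98%). In the 3 other high-fat females this held for Abat, Aldh5a1, Aldh6a1, Pcca and Pccb (6.46%). The diet comparisons chose the list, so nothing is read from these counts.

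**Figure D4:**
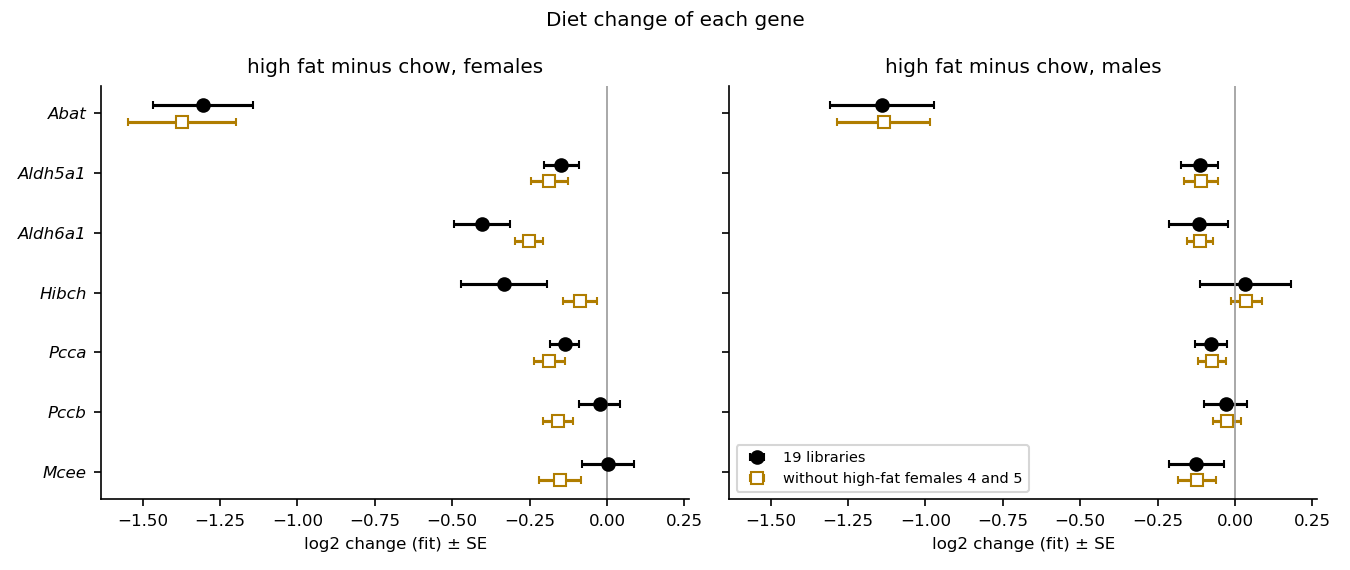
Fitted log2 change of each gene, high fat minus chow, in females (left) and males (right); filled circles use 19 libraries, open squares leave out high-fat females 4 and 5, and bars are 1 SE. Abat lies near -1.3 in females and -1.1 in males, and the other 6 genes lie between -0.40 and 0.03.

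Whether the diet change differed between the sexes was tested as an interaction, the female change minus the male change. For Abat the difference was -0.16 ± 0.23 (SE; edgeR's quasi-likelihood test, adjusted p = 0.776). Abat was listed with its lower level on high fat in both sexes in view, so a like change in the sexes is not read from this value. The most negative differences were those of Hibch (-0.37 ± 0.20, adjusted p = 0.552) and Aldh6a1 (-0.29 ± 0.13, adjusted p = 0.479) by the same edgeR test. Without high-fat females 4 and 5 the most negative difference was that of Abat, -0.24 ± 0.23, and the values were -0.14 ± 0.06 for Aldh6a1, -0.13 ± 0.07 for Pccb and -0.12 ± 0.08 for Hibch, none of them called. The interaction was called for 0 of the 7 genes by edgeR and 0 by DESeq2, with 1 at an unadjusted p under 0.05, and edgeR called 0.0% of all 18069 tested genes (1839 at an unadjusted p under 0.05; DESeq2 called 58).

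Between the sexes on the high-fat diet, the valine-route genes Aldh6a1 and Hibch were lower in females. Aldh6a1 averaged 176 ± 31.7 CPM in high-fat females and 218 ± 10.2 CPM in high-fat males (SD, n = 5 each), with a log2 difference of -0.31 ± 0.09 (SE; edgeR's quasi-likelihood test, adjusted p = 0.0360). Hibch averaged 92.3 ± 26.1 CPM in high-fat females and 127 ± 3.43 CPM in high-fat males, with a log2 difference of -0.47 ± 0.14 (SE; edgeR's quasi-likelihood test, adjusted p = 0.0404). For both genes all 5 high-fat females lay below every high-fat male, which held, with females lower, for 5.22% of all tested genes. These were 2 of 7 genes, where 3.92% of all tested genes were called lower in females on high fat and 6.4% higher.

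Both differences were smaller without high-fat females 4 and 5 and were still called. Aldh6a1 then averaged 196 ± 10.5 CPM in 3 high-fat females, and its difference from males was -0.16 ± 0.05 (SE; edgeR adjusted p = 0.0313). Hibch averaged 109.7 ± 9.42 CPM in 3 high-fat females, with a difference of -0.22 ± 0.06 (SE; edgeR adjusted p = 0.0162). Pcca was called as well in this fit, at 165 ± 6.74 CPM in 3 high-fat females and 185 ± 9.68 CPM in 5 high-fat males, a difference of -0.17 ± 0.05 (SE; edgeR adjusted p = 0.0316), so 3 of 7 genes were lower where 5.47% of all tested genes were. With all 5 females and an offset for the GC content of each gene, Aldh6a1 stood at -0.02 and was not called, and Hibch stood at -0.39 and was called. Leaving out high-fat female 4 or any single high-fat male ended both calls, and leaving out high-fat female 3 or chow female 2 ended that of Hibch. Over all single libraries left out, the edgeR adjusted p ran up to 0.0810 for Aldh6a1, at differences of -0.37 to -0.22, and up to 0.0973 for Hibch, at differences of -0.58 to -0.33.

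On chow, edgeR called 0 of the 7 genes different between females and males, where 3.22% of all tested genes were called; DESeq2 also called 0, and 0 had an unadjusted p under 0.05. Abat averaged 14.6 ± 2.65 CPM in females on chow and 15.1 ± 1.77 CPM in males on chow, a log2 difference of -0.05 ± 0.17 (SE). The differences of the other 6 genes lay between -0.12 for Mcee and 0.02 for Pccb. On high fat, Abat differed between females and males by -0.21 ± 0.16 (SE; edgeR adjusted p = 0.378), and by -0.28 ± 0.17 (SE; edgeR adjusted p = 0.336) without high-fat females 4 and 5, and the groups overlapped.

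Levels of different genes are compared per kilobase of exon. In chow females Aldh6a1 stood highest at 69.8 ± 1.92 CPM per kilobase, followed by Pccb at 62.2 ± 2.44 and Mcee at 50.1 ± 4.33 (SD, n = 5). Pcca had 35.9 ± 1.85, Hibch 19.2 ± 1.21, Aldh5a1 7.28 ± 0.30 and Abat 1.88 ± 0.34 CPM per kilobase. Neighbours in this order were apart by more than their SDs in chow females. These SDs hold the spread among libraries only. The exon length counts all annotated pieces, also those with almost no reads, which lowers a level per kilobase. In Abat a piece of 2360 bases held 8 counts over all libraries. In high-fat females Pccb, at 61.2 ± 7.39, stood before Aldh6a1, at 52.8 ± 9.50, and Mcee, at 50.3 ± 7.09 CPM per kilobase, and these 3 did not differ beyond their spread. Abat was the lowest of the 7 in every group, with 0.762 ± 0.163 CPM per kilobase in high-fat females, 0.880 ± 0.166 in high-fat males and 1.94 ± 0.23 in chow males. Reads across a piece boundary may enter the sum once for each piece, which would raise genes with many short pieces. In chow male 4, which was counted once per gene, Aldh6a1 led with 81.2 CPM per kilobase, Mcee had 64.9, Pccb 47.4 and Abat was again lowest with 2.25.

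The start regions of Aldh6a1 and Hibch are shown because these genes were the pair that differed between the sexes on high fat. Of the 7 genes, 6 matched an entry in the RefSeq promoter table (GRCm38.p6, 250 bases before to 50 after the start), with 8 promoters in all, and Abat had none. Capitals mark the CCAAT box (CCAAT) and the GC box (GGGCGG) on either strand. The first sequence is chr12:84450975-84451274 on the minus strand and the second chr1:52844788-52845087 on the plus strand.
Aldh6a1 promoter: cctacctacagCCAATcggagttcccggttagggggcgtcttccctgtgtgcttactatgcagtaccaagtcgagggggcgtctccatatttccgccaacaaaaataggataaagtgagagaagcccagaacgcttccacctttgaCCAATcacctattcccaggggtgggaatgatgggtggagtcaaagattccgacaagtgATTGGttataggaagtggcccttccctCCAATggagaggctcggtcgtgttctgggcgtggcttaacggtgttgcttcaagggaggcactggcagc
Hibch promoter: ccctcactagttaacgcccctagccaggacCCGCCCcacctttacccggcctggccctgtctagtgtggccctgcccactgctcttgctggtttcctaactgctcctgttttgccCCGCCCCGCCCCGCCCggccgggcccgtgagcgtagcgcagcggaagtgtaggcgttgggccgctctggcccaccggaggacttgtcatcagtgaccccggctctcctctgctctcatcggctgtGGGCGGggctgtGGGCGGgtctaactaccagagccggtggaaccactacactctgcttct
The RefSeq table holds a second Aldh6a1 promoter, further into the gene, which is not printed and has 2 CCAAT boxes, no GC box and 42.3% GC; the one shown lies at the 5′ end of the annotated gene. This Aldh6a1 promoter holds 4 CCAAT boxes and no GC box, at 53.7% GC, and the Hibch promoter holds 6 GC boxes, some of which overlap by a base, and no CCAAT box, at 66.3% GC. CCAAT is present in 37.4% and GGGCGG in 35.7% of the 32851 promoters of the table.

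Among the genes around GABA, those for glutamate decarboxylase and for several GABA transporters were barely detected in these hearts, and none of the receptor genes tested was called for diet. Of 17 genes for synthesis, transport and side routes, 10 passed the filter. The glutamate decarboxylase genes did not, with a count for Gad1 in 3 of 19 libraries and for Gad2 in 12, and neither did the transporter genes Slc6a11 and Slc32a1, with a count in 1 library each, and Slc6a13, with a count in 18. Genes of the putrescine route to GABA were detected, with Maob, a monoamine oxidase, at 82.1 ± 14.2 CPM in high-fat females and 71.95 ± 7.77 CPM in chow females, and Aldh9a1, an aldehyde dehydrogenase, at 54.8 ± 6.03 CPM in high-fat females and 53.4 ± 3.002 CPM in chow females. Without high-fat females 4 and 5, the high-fat females averaged 71.99 ± 4.45 CPM for Maob and 58.9 ± 1.65 CPM for Aldh9a1. In females 1 of the 10 was called, Adhfe1, which encodes a transhydrogenase that oxidises γ-hydroxybutyrate, at 90.8 ± 7.01 CPM on high fat and 109.9 ± 4.10 CPM on chow (SD, n = 5 each). Its log2 change was -0.28 ± 0.05 (SE; edgeR adjusted p = 0.00804), and -0.23 ± 0.04 without high-fat females 4 and 5. Of all tested genes, 0.863% were called lower in females. Without high-fat females 4 and 5, Glud1 was called lower in females as well, with a log2 change of -0.16 ± 0.04 (SE, edgeR adjusted p = 0.0240). Adhfe1 and Glud1 were then 2 of 10 genes, where 2.5% of all tested genes were called lower. Akr7a5, a reductase of succinate semialdehyde, had 38.3 ± 5.69 CPM in high-fat females and 35.9 ± 2.41 CPM in chow females, and was not called. In males edgeR and DESeq2 called 0 of the 10, with 2 at an unadjusted p under 0.05. Of all 18069 tested genes, edgeR called 457 for diet in females and 138 in males. At an unadjusted p under 0.05 stood 3390 of all tested genes in females and 1539 in males. Of 16 receptor genes, 5 passed the filter and edgeR and DESeq2 called 0 for diet in either sex, with 0 in females and 2 in males at an unadjusted p under 0.05. Gabbr1, a subunit of the metabotropic receptor, was the most abundant of those 5 in raw CPM, at 15.1 ± 3.84 in high-fat females and 17.1 ± 1.18 in chow females.

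Of 18 genes that supply propionyl-CoA from valine, isoleucine and propionate or act beside them, 1 was called lower in each sex, Pcx. Of all tested genes, 0.863% were called lower in females and 0.365% in males. DESeq2 called 2 of the 18 in each sex. By edgeR, 10 of the 18 in females and 6 in males had an unadjusted p under 0.05, against 3390 and 1539 of all 18069 tested genes. Pcx encodes pyruvate carboxylase, a biotin enzyme that makes oxaloacetate rather than propionyl-CoA. It had 28.0 ± 3.99 CPM in high-fat females and 36.1 ± 2.21 CPM in chow females, a log2 change of -0.37 ± 0.10 (SE; edgeR adjusted p = 0.0477), and of -0.52 ± 0.08 without high-fat females 4 and 5. In males it had 24.1 ± 3.21 CPM on high fat and 32.7 ± 1.76 CPM on chow, a log2 change of -0.44 ± 0.10 (SE; edgeR adjusted p = 0.0494). The median log2 change of the 18 genes was -0.16 in females and -0.10 in males.

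The list of 18 genes was chosen with earlier results of these data known, so its counts are a description and nothing is read from them. With high-fat females 4 and 5 left out, 10 of these 18 genes were called lower in females, where 2.5% of all tested genes were. They included Bckdhb, a subunit of the branched-chain ketoacid dehydrogenase, at 56.2 ± 1.43 CPM in 3 high-fat females and 75.01 ± 6.49 CPM in 5 chow females, a log2 change of -0.42 ± 0.07 (SE; edgeR adjusted p = 0.00134). Hsd17b10, the dehydrogenase of isoleucine breakdown, changed by -0.36 ± 0.06, and Acadsb, the acyl-CoA dehydrogenase of the same route, by -0.34 ± 0.06. In males the same fit called 3 of the 18 lower, Pcx, Bckdhb and Bcat2 (1.23% of all tested genes were called lower), and 2 higher, Mlycd and Acat1 (1.36% called higher). With all 19 libraries Bckdhb had 61.8 ± 7.82 CPM in high-fat females and 75.01 ± 6.49 CPM in chow females, and 58.1 ± 4.19 CPM in high-fat males and 73.1 ± 2.59 CPM in chow males, and was not called.

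Downstream of Mcee, edgeR and DESeq2 called 0 of 16 genes for methylmalonyl-CoA mutase, its cobalamin cofactor and the succinyl-CoA step for diet in either sex, with 4 in females and 2 in males at an unadjusted p under 0.05. Of all 18069 tested genes, edgeR called 457 for diet in females and 138 in males, and 3390 and 1539 had an unadjusted p under 0.05. Mmut, the mutase itself, had 89.7 ± 32.7 CPM in high-fat females and 129.5 ± 5.29 CPM in chow females (SD, n = 5 each), and 125 ± 6.78 CPM in high-fat males (n = 5) and 130.1 ± 2.64 CPM in chow males (n = 4). Without high-fat females 4 and 5, Mmut had 112 ± 8.50 CPM in 3 high-fat females and was called lower, with a log2 change of -0.21 ± 0.05 (SE; edgeR adjusted p = 0.0226), as were Cd320, the cobalamin uptake receptor, and Mmab, the adenosyltransferase. These were 3 of 16 genes, where 2.5% of all tested genes were called lower. In males the same fit called 1 of 16 lower, Cd320, with a log2 change of -0.29 ± 0.07 (SE; edgeR adjusted p = 0.0414), where 1.23% of all tested genes were called lower. Of 11 genes of pyrimidine and β-alanine breakdown, 10 were tested and 1 was called for diet in females, Upb1, at 0.273 ± 0.0627 CPM on high fat and 0.569 ± 0.154 CPM on chow (SD, n = 5 each). With all libraries, 0.863% of all tested genes were called lower in females. Upb1, the enzyme that forms β-alanine and aminoisobutyrate, was not called without high-fat females 4 and 5. In males edgeR and DESeq2 called 0 of these 10 genes. By edgeR, 2 of them had an unadjusted p under 0.05, against 1539 of all 18069 tested genes.

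The hearts carried the markers of their tissue, and all liver markers stood below 1 CPM in every library. The 8 cardiomyocyte markers summed to 78315 to 91342 CPM in high-fat females and 87691 to 94747 CPM in chow females, and to 80332 to 86045 CPM in high-fat males and 88978 to 95734 CPM in chow males. The male groups did not overlap in this sum, which was lower on high fat, and the female groups overlapped. Of the 8 markers, 1 was called lower in high-fat females and 0 in high-fat males. Of all tested genes, 0.863% were called lower in females and 0.365% in males. The part of cardiomyocyte RNA in the Abat result was not tested. The 7 hepatocyte markers summed to at most 0.733 CPM in any, with no count for Fgb. Abat is abundant in liver. The summed hepatocyte markers ran from 0.154 to 0.496 CPM in high-fat females and from 0.436 to 0.733 CPM in chow females, and from 0.224 to 0.481 CPM in high-fat males and from 0.375 to 0.627 CPM in chow males, so the groups overlapped in both sexes. The 8 neuronal markers summed to 5.31 to 6.81 CPM in high-fat females and 5.01 to 6.43 CPM in chow females, and to 5.52 to 6.05 CPM in high-fat males and 5.63 to 6.37 CPM in chow males. The 6 endothelial markers were at 1270.0 to 1380.2 CPM in high-fat females and 1152 to 1210.1 CPM in chow females, and at 1314 to 1399.7 CPM in high-fat males and 1094 to 1222 CPM in chow males, with no overlap between the diets in either sex, and 3 of 6 were called higher on high fat in females and 1 of 6 in males. The 6 fibroblast markers summed to 901 to 1011 CPM in high-fat females and 766 to 862 CPM in chow females, with no overlap. In males they summed to 782 to 866 CPM on high fat and 756 to 821 CPM on chow, with overlap. Of the 6 fibroblast markers, 2 were called higher in high-fat females and 0 in high-fat males. Beside these endothelial and fibroblast counts, edgeR called 457 of all 18069 tested genes for diet in females, in either direction, and 138 in males. The part of these markers in the Abat result was not tested.

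The genes whose levels followed Abat most closely were ranked by Pearson's r of log2(CPM + 0.5) over the 19 libraries, among 12088 named genes averaging 1 CPM or more. The libraries share their diet group and their depth between the genes compared, and r is given as a description. The most positive were Ptpru (0.897), Oxct1 (0.872), Ivd (0.871), Ppp3cc (0.863) and Dmpk (0.862). Ptpru, a receptor tyrosine phosphatase, had 4.49 ± 1.06 CPM in high-fat females and 5.81 ± 0.59 CPM in chow females, and Ivd, the isovaleryl-CoA dehydrogenase of leucine breakdown, had 414 ± 32.6 CPM in high-fat females and 474 ± 33.6 CPM in chow females. Among the most negative were Mthfd2 (-0.853), Chrna2 (-0.844), Ube2h (-0.836) and Trim25 (-0.829). Over the 17 libraries left without high-fat females 4 and 5, Ptpru (0.948), Bckdhb (0.935), Ivd (0.931), Inpp5a (0.928) and Neat1 (0.924) were the most positive, and Cdk6 (-0.919), Kdm4c (-0.885), Lats1 (-0.855) and Zdhhc20 (-0.85) were among the most negative. Among the other 6 members r with Abat over 19 libraries was 0.696 for Pcca, 0.636 for Aldh5a1 and 0.565 for Aldh6a1, and between 0.238 and 0.274 for Pccb, Hibch and Mcee. Without high-fat females 4 and 5 it was 0.791 for Aldh6a1, 0.691 for Pcca, 0.659 for Pccb, 0.609 for Aldh5a1, 0.471 for Mcee and 0.061 for Hibch.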

How the data were processed

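Hearts from 20 samples were sequenced; per the labels' protocols RNA was polyA-selected, and GRCm39, DESeq2 1.32.0 and Salmon 1.5.1 are named, without a role, per the submitters' processing notes. The deposited tables hold raw counts, made by the authors, of 425461 exon pieces in 19 libraries and of genes in chow male 4. The counter is not given in the sources used here, and coordinates in the files match GRCm38 with GENCODE vM21 (same start and end for 91.4% of 49056 shared genes). A piece with joined IDs went to the 1 gene with an exon, per the per-gene table, that spans it (27829 of 33309; the other 5480 held 1.35 to 1.49% of counts and were not used). Gene sums were fitted in edgeR 4.0.16 (R 4.3.3) with TMM scaling, filterByExpr, 1 mean per group over all 4 groups and the quasi-likelihood F-test, with Benjamini-Hochberg adjustment over 18069 genes and a threshold of 0.05. The test was checked on simulated counts. CPM use TMM-scaled totals. Alternatives included DESeq2 1.42.0 and leaving out each library. The 7 genes and the lists around them were chosen with earlier results of these data known. Named were all 7, up to 4 called genes of a list by smallest p, and the 5 genes most like and most unlike Abat, of which 1 is not reported here. No 2 libraries of the same group agreed within sampling noise (lowest chi-square per degree of freedom 8.17).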

Additional observations from a re-analysis of the deposited data

How the results depend on the processing

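The diet change of Abat ran from -1.39 to -1.20 in females and from -1.24 to -0.99 in males over the alternatives that could test it; it was chosen on these values, so the range is a description. The fit on the longest piece of each gene could test neither Abat, whose longest piece holds almost no reads, nor Hibch, and of the other 5 genes it called 1 for diet in females and 0 in males. The piece with the most counts, chosen after seeing the data, gave Abat -1.33 and -0.99. Diet in females had 1 gene called, Abat, in place of 2 with only the groups compared, with the replicate block, with the GC offset, with both, and with chow male 4 joined, where Aldh6a1 stood at -0.40, -0.42, -0.16, -0.17 and -0.40. Single libraries left out gave 1 to 2 calls for diet in females (1 without chow female 1 or high-fat female 4), 1 to 1 in males, 0 to 0 for the interaction and for sex on chow, and 0 to 2 for sex on high fat. Calls for sex on high fat were 0 with no filter, 0 with only the groups compared, 0 with chow male 4 joined, 1 with the GC offset and 1, of 5 tested, with the longest piece. The sign of some small changes that were not called turned. Those named next moved by at least the SD of log2 levels within groups, and smaller turns are not listed. Without high-fat females 4 and 5 Mcee was -0.15 for diet in females, the interaction -0.030 for Mcee and -0.13 for Pccb, and sex on high fat -0.15 for Mcee and -0.11 for Pccb. Pcca was 0.052 in females and 0.25 in males with the longest piece, 0.072 for diet in males and 0.087 for sex on chow with chow male 4 joined, and 0.017 and 0.033 for the interaction with the GC offset and the piece with the most counts. Of 1089 refitted changes, 28 lost a call and 2 gained one. Another 11, the turns of sign named above, were not called in either fit. The other 1048 stayed on the same side of the threshold. These 1048 kept direction, or turned sign while moving by less than the SD of log2 levels within groups. The cause of these shifts was not tested.

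Same-numbered libraries correlated at -0.17 to 0.24 in their deviations from group means. Libraries with different numbers were not compared in this way, so whether replicate numbers pair the samples was not tested. With the replicate block 1 gene was called for diet in females and 1 in males, with Abat at -1.31 ± 0.12 (SE) and -1.08 ± 0.13, and 0 for the interaction. With a block over the 4 groups, added after seeing the data, 2 were called for sex on high fat and 0 for sex on chow.

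With 246 to 1342 Abat counts per library, single pieces of Abat rest on few reads, and labels give no separate animals or batches. Counts of reads are not counts of independent molecules.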

Other observations

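Several genes of the lists around the 7 were called for sex. Of all tested genes, edgeR called 6.4% higher and 3.92% lower in females on high fat, and 3.22% in either direction on chow. In high-fat females 1 gene was higher and 1 lower in each of the lists of 10 GABA, 18 supply and 10 pyrimidine genes. Of the 16 genes downstream of Mcee 1 was higher and 2 lower, and 0 of the 5 receptor genes were called. On high fat, Slc6a6, the taurine transporter, had 110.9 ± 7.56 CPM in females and 79.1 ± 8.74 CPM in males (SD, n = 5 each), a log2 difference of 0.49 ± 0.10 (SE; edgeR adjusted p = 0.00679), and 0.51 ± 0.11 without high-fat females 4 and 5. Sucla2, a subunit of succinyl-CoA synthetase, had 722 ± 132 CPM in high-fat females and 970.4 ± 18.98 CPM in high-fat males, a log2 difference of -0.43 ± 0.09 (SE; edgeR adjusted p = 0.00686), and -0.28 ± 0.04 without those libraries. Carns1, which makes carnosine from β-alanine, was higher in females on both diets. It had 32.4 ± 3.32 CPM in high-fat females and 25.0 ± 2.67 CPM in high-fat males, and 36.2 ± 4.05 CPM in females on chow and 26.5 ± 2.88 CPM in males on chow, with log2 differences of 0.38 ± 0.10 (SE; edgeR adjusted p = 0.0192) on high fat and 0.45 ± 0.10 (SE; edgeR adjusted p = 0.0190) on chow.

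Mtr, methionine synthase, the other cobalamin-dependent enzyme beside the mutase, was lower in females on both diets. Mtr had 61.8 ± 9.65 CPM in high-fat females and 83.6 ± 5.55 CPM in high-fat males, and 70.7 ± 7.27 CPM in females on chow and 95.0 ± 6.24 CPM in males on chow. The log2 differences were -0.44 ± 0.10 (SE; edgeR adjusted p = 0.00857) on high fat and -0.43 ± 0.10 (SE; edgeR adjusted p = 0.0251) on chow, and -0.30 ± 0.08 on high fat without high-fat females 4 and 5. Acat1, the thiolase of isoleucine and ketone breakdown, had 745 ± 37.8 CPM in high-fat females and 855.5 ± 24.9 CPM in high-fat males, a log2 difference of -0.20 ± 0.05 (SE; edgeR adjusted p = 0.0109). Slc25a44, from the same list, was higher in high-fat females, by 0.30 ± 0.07 (SE, edgeR adjusted p = 0.00842), and by 0.19 ± 0.06 without high-fat females 4 and 5. Adhfe1 was lower in high-fat females, by -0.19 ± 0.05 (SE, edgeR adjusted p = 0.0214). Btd was higher in them, by 0.24 ± 0.07 (SE, edgeR adjusted p = 0.0490), and was not called without high-fat females 4 and 5. Dpyd, which starts pyrimidine breakdown, was called lower in high-fat females with all libraries, at 9.77 ± 2.48 CPM against 13.8 ± 1.102 CPM in high-fat males, and was not called without high-fat females 4 and 5.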
